A study of Mus musculus with 2 samples.

Results

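Transcripts of 46 genes of apoptosis, necroptosis, pyroptosis and the innate receptors that feed into them were compared between 2 mouse kidney libraries made after acute kidney injury (AKI). The genes were taken by symbol from a list chosen with earlier results of these data known. All 46 had a row among the 19829 genes of the deposited table. The WT+AKI library is wild type, and the TG+AKI library is from the *Inmt* transgenic line, which overexpresses this methyltransferase in proximal tubules. The number of mice behind each library was not given in the sources used here. The promoter that drives the transgene was not given in the sources used here. Per the study's methods, male C57BL/6 mice of both genotypes were given voclosporin, a calcineurin inhibitor, intraperitoneally (30 mg/kg each day) over 2 weeks, starting at an age of 8 weeks and ending at 10. Bilateral ischemia of the kidneys for 30 min followed at 14 weeks, and RNA came from the left kidney. A figure legend places the harvest 24 h after ischemia and the methods place it at 48 h. The labels differ here, as their treatment field lists no treatment and the design text mentions voclosporin. A conditional knockout is also named in the title of the transgenic sample. The normalized value of *Inmt* was 10.4 for WT+AKI but 403 for TG+AKI, the direction of an overexpressing transgene.

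Apoptosis is a program in which proteins of the BCL2 family decide whether mitochondria release factors that start a cascade of proteases, the caspases. Necroptosis runs through the kinases RIPK1 and RIPK3 and the membrane-rupturing protein MLKL when caspase-8 is not active. Pyroptosis is lytic death through gasdermin pores that inflammatory caspases open. In the ischemic kidney, tubular cells are known to die by several of these routes. Dying cells release alarmins that Toll-like receptors on tubular and immune cells sense.

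Each group is represented by 1 library, so variation between mice could not be measured and no difference was checked by replication. The values are deposited normalized counts, close to reads per 1000000, and whole reads could be recovered from them. WT+AKI held 38542764 reads and TG+AKI held 36427421. A ratio is the value in TG+AKI over that in WT+AKI, with a 95% exact (Clopper-Pearson) interval from the reads in brackets. Intervals cover counting error only, because each group has 1 library. They treat each read as a separate molecule, which amplified reads without a molecular tag are not, so even this error may be understated. Markers of kidney epithelium were abundant in both libraries. The summed value of 5 proximal tubule markers went from 2364 (WT+AKI) to 10475 (TG+AKI), and that of 10 tubular injury genes from 13311 to 903. In whole tissue, fewer cells of a type and less RNA per cell cannot be told apart.

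Transcripts of the 46 listed genes were on the whole lower in the transgenic kidney, and none was at least 2-fold higher. The list was chosen with earlier results of these data known, so the shares below describe it and test nothing. Of the 46 genes, 15 were at least 2-fold lower in TG+AKI, against 12.6% of all 19829 listed genes. At least 2-fold higher values were found for 0 of the 46, against 9.18% of all listed genes. The median log2 ratio was -0.56 over the 46 genes and -0.016 over all listed genes. Among the 45 genes that reached a value of 1 in at least 1 library, 15 were lower by that rule, against 11.0% of the 14997 genes compared, and 0 were higher, against 7.35%. Of those 45, *Casp1*, *Bcl2a1b*, *Ripk3* and *Zbp1* reached 1 in WT+AKI only. Among the 41 genes with at least 1 in both libraries, 12 were at least 2-fold lower, against 8.03% of all such genes. The interval lay below 1 for 29 of the 45 genes, against 38.7% of the genes compared, and above 1 for 6, against 36.3%. It lay wholly below 0.5 for 12, against 7.52%. A ratio below 1 was found for 35 of the 45, against 51.3%. The counts depend on the scaling. When both libraries were set to the same total, which shifts every log2 ratio by -0.27, 22 of the 45 genes were at least 2-fold lower, against 16.0% of all genes compared. The share of higher genes among all genes past 2-fold was 40.1% as deposited and 22.6% with equal totals.

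**Figure D1:**
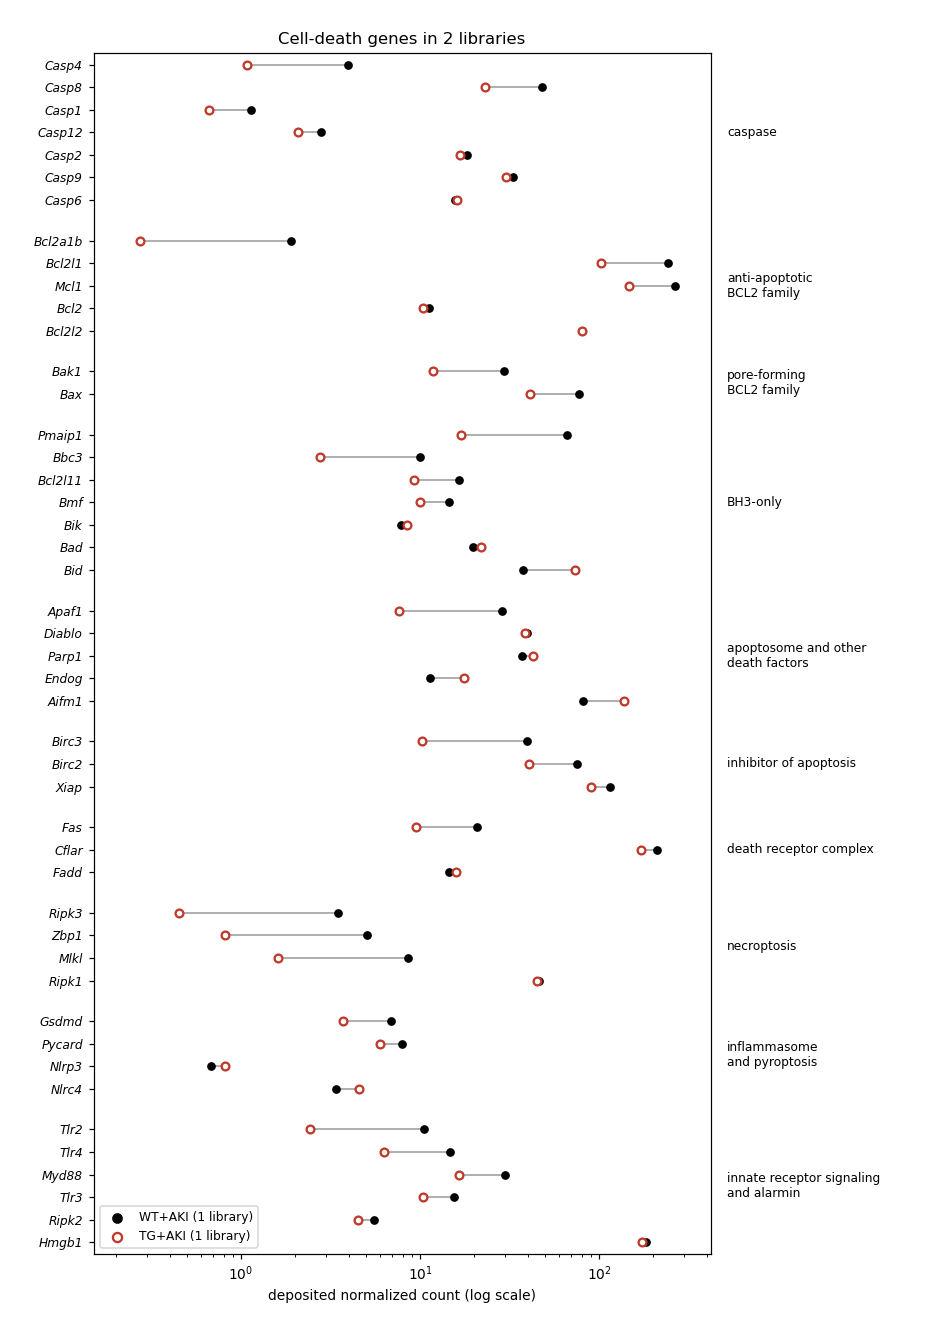
Deposited normalized counts (log scale) of the 46 cell-death genes in WT+AKI (black) and TG+AKI (red, open), 1 library each, ordered by role. Long bars to the left mark *Ripk3*, *Zbp1*, *Mlkl*, *Bcl2a1b* and *Tlr2*, while *Bid*, *Aifm1* and *Endog* extend to the right.

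Of the 4 necroptosis genes, 3 were at least 2-fold lower in TG+AKI, against 11.0% of all genes compared. Of these, *Ripk3* and *Zbp1* reached a value of 1 in WT+AKI only, the library where they were high. *Mlkl* reached it in both. *Ripk3*, the kinase that commits a cell to necroptosis, had 148 reads (a value of 3.49) in the wild-type library but 15 reads (0.453) in the transgenic library. This was 7.71-fold lower in the transgenic kidney [4.52 to 14.1], the lowest ratio of the 46 genes as deposited. With a pseudocount of 1 its log2 ratio moved from -2.95 to -1.63 and was no longer the lowest. *Zbp1*, a sensor of Z-form nucleic acids that engages RIPK3, was listed at 5.05 and 0.815, from 214 and 27 reads, and was 6.19-fold lower [4.14 to 9.61]. *Mlkl*, whose product RIPK3 phosphorylates, was listed at 8.59 and 1.6004, from 364 and 53 reads, and was 5.36-fold lower [4.01 to 7.30]. Only 1.61% of the genes compared had a ratio below that of *Ripk3*, and 2.47% had one below that of *Mlkl*. *Ripk1*, which acts upstream in survival as well as death signaling, stood apart from these 3 genes. Its values were 46.1 and 44.8, with a ratio of 0.972 [0.908 to 1.04] that included 1. The reads of *Ripk3* relative to those of *Ripk1* in the same library were 7.49-fold lower in TG+AKI [4.37 to 13.8], a comparison that no scaling can move. The ratio of *Mlkl* to *Ripk3* reads in TG+AKI was 1.44 times that in WT+AKI [0.768 to 2.83], with an interval that included 1.

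Of the 7 caspases, *Casp4* and *Casp8* were at least 2-fold lower, against 11.0% of all genes compared. The interval lay below 1 for 4 of the 7, against 38.7%. *Casp4*, the mouse caspase-11 that binds bacterial lipopolysaccharide in the cytosol and cleaves gasdermin D, was listed at 3.94 and 1.09, from 167 and 36 reads, and was 3.62-fold lower in TG+AKI [2.52 to 5.35]. *Casp8*, the initiator caspase of death receptors and the brake on RIPK3, was listed at 47.8 and 23.0 and was 2.08-fold lower [1.91 to 2.26]. *Casp1*, the inflammasome caspase, had 48 and 22 reads and a ratio of 0.587 [0.337 to 0.991], which passed 2-fold with equal totals. *Casp12*, an endoplasmic reticulum caspase, had a ratio of 0.742 [0.544 to 1.01]. Of the initiators of the intrinsic route, *Casp2* was listed at 18.4 and 16.7 and *Casp9* at 33.2 and 30.3. *Casp6*, an executioner, was listed at 15.7 and 16.2, with a ratio of 1.03 [0.919 to 1.16] whose direction turned with equal totals. *Casp1*, *Casp4* and *Casp12* lie side by side on the plus strand of chromosome 9, at chr9:5298517-5307281, chr9:5308849-5336791 and chr9:5345442-5373034 in the GRCm38.p6 annotation. Of these 3 neighbours, *Casp4* alone had an interval that lay below 0.5.

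The main survival proteins of the BCL2 family, which bind and restrain the pore formers, split into lower and near-equal members. *Bcl2l1* (BCL-XL) was listed at 242 and 103 and was 2.36-fold lower in TG+AKI [2.27 to 2.45]. *Mcl1* was listed at 267 and 148, a level 1.80-fold lower [1.74 to 1.87]. *Bcl2a1b*, a short-lived NF-κB target of myeloid cells, was listed at 1.91 and 0.272, the latter from 9 reads, and was 7.03-fold lower [3.53 to 15.9]. Reads may be split with *Bcl2a1a* and *Bcl2a1d*, as 56.8% of the 100-base words of its longest transcript also occur elsewhere, so its level is uncertain. *Bcl2*, the founding member, was near equal at 11.3 and 10.4 (ratio 0.919 [0.798 to 1.06]). *Bcl2l2* (BCL-W) was listed at 80.5 in both libraries, with a ratio of 1.0002 [0.9505 to 1.05].

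Of the pore formers, 1 of 2 was at least 2-fold lower, against 11.0% of all genes compared. *Bak1*, which sits on the outer mitochondrial membrane, was listed at 29.5 and 11.7 and was 2.51-fold lower [2.24 to 2.82]. *Bax*, which moves there from the cytosol, was listed at 77.7 and 41.0 and was 1.89-fold lower [1.78 to 2.02], just outside the 2-fold rule, which it passed with equal totals. On the other strand, *Ggnbp1* overlaps 25.5% of the exon bases of *Bak1*, and it was higher in TG+AKI (7.78 and 18.5). The counting was not stated to use the strand, so reads of the 2 genes cannot be told apart there.

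The BH3-only proteins, which sense stress and engage the other BCL2 proteins, had ratios on both sides of 1. *Pmaip1* (NOXA), a p53-responsive neutralizer of MCL1, was listed at 65.9 and 16.9 and was 3.91-fold lower in TG+AKI [3.57 to 4.29]. *Bbc3* (PUMA), also p53-responsive, was listed at 10.05 and 2.78 and was 3.62-fold lower [2.88 to 4.58]. *Bcl2l11* (BIM) had a ratio of 0.562 [0.490 to 0.644] and *Bmf* one of 0.685 [0.597 to 0.784]. *Bid*, which caspase-8 cleaves to link death receptors to mitochondria, went the other way. It was listed at 37.6 and 73.2, with a ratio of 1.94 [1.82 to 2.07], the highest of the 46 genes and just under the 2-fold rule. *Bid* overlaps *Bcl2l13* on the other strand over 17.7% of its exon bases, and *Bcl2l13* had a ratio of 1.07 [1.01 to 1.13]. *Bad* (ratio 1.11 [1.002 to 1.23]) and *Bik* (1.09 [0.926 to 1.28]) were near equal, and the direction of both turned with equal totals.

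**Figure D2:**
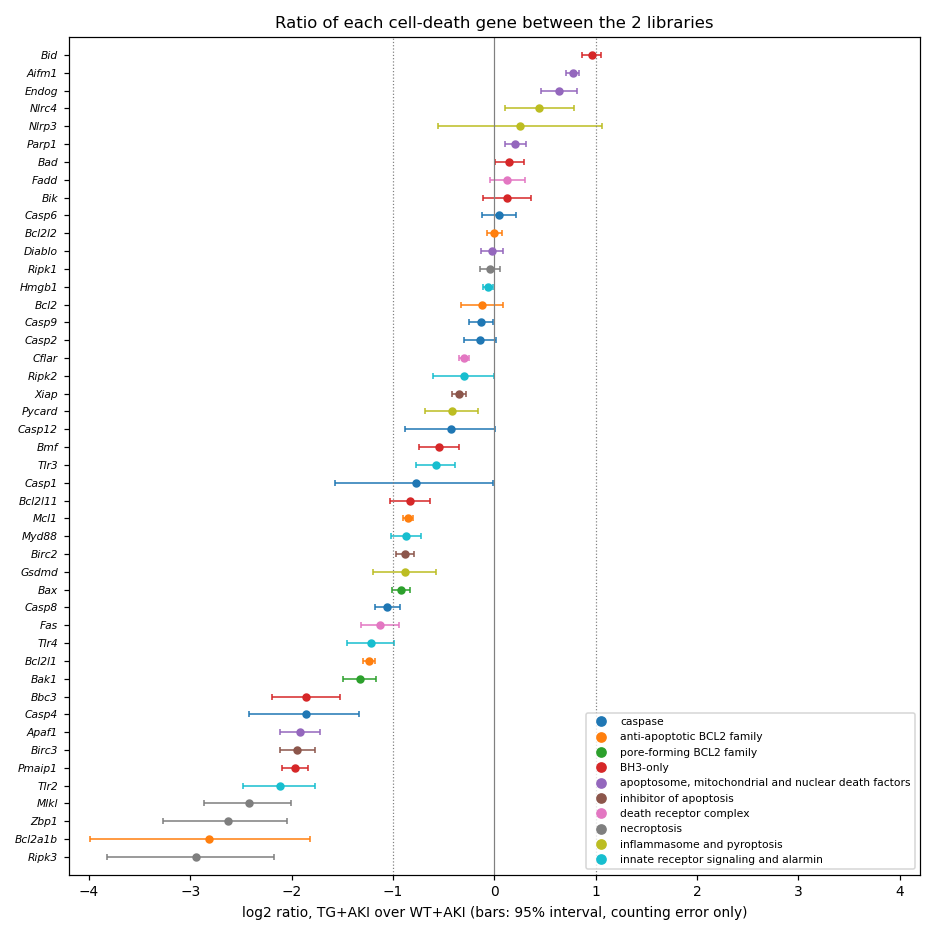
Log2 ratio of TG+AKI over WT+AKI for each of the 46 genes, ordered by ratio and coloured by role. Bars are 95% intervals from counting error alone, and the dotted lines mark 2-fold. The lowest 4 points are *Ripk3*, *Bcl2a1b*, *Zbp1* and *Mlkl*, and the highest is *Bid*.

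Downstream of mitochondria, *Apaf1* stood apart from its partners. Its product is the scaffold on which caspase-9 is activated. It was listed at 28.7 and 7.61 and was 3.77-fold lower in TG+AKI [3.29 to 4.33], whereas *Casp9* had a ratio of 0.910 [0.839 to 0.988]. Within a library, the reads of *Apaf1* relative to *Casp9* were 3.43-fold lower in TG+AKI [2.92 to 4.04]. Mitochondrial proteins with a second role in death were level or higher. *Aifm1*, a flavoprotein of the intermembrane space that supports respiratory chain assembly, was listed at 80.9 and 138, with a ratio of 1.71 [1.63 to 1.79]. *Endog*, a mitochondrial nuclease, was listed at 11.3 and 17.7, with a ratio of 1.56 [1.38 to 1.76]. *Spout1* overlaps 35.7% of the exon bases of *Endog* on the other strand, and its ratio was 1.13 [1.03 to 1.253]. *Diablo* (SMAC), which relieves caspases from their inhibitors, was listed at 39.5 and 38.8 (ratio 0.983 [0.913 to 1.06]). It shares 30.1% of its 100-base words with *Gm49027*. *Parp1*, a DNA damage sensor that caspases cleave, had a ratio of 1.15 [1.07 to 1.24], and its direction turned with equal totals.

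The 3 inhibitors of apoptosis, ubiquitin ligases that hold back caspases or RIPK1 death complexes, included 1 gene at least 2-fold lower. Over all genes compared, 11.0% were at least 2-fold lower. The interval lay below 1 for each of the 3, as it did for 38.7% of all genes compared. *Birc3* (cIAP2), an NF-κB target, was listed at 39.5 and 10.3 and was 3.84-fold lower [3.42 to 4.33]. Its neighbour *Birc2* (cIAP1) was listed at 75.3 and 40.9 and was 1.84-fold lower [1.73 to 1.96]. These genes lie next to each other on the minus strand, at chr9:7847468-7873205 and chr9:7818226-7837131. The reads of *Birc3* relative to *Birc2* were 2.09-fold lower in TG+AKI [1.83 to 2.39]. *Xiap*, which inhibits caspases directly, was listed at 115 and 90.5 (ratio 0.785 [0.7495 to 0.821]).

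In the death receptor complex, the receptor differed more than the adaptor. *Fas* was listed at 20.9 and 9.54 and was 2.19-fold lower [1.92 to 2.50]. *Fadd*, the adaptor between FAS and caspase-8, was listed at 14.5 and 15.9 (ratio 1.09 [0.971 to 1.23]), and its direction turned with equal totals. *Cflar* (c-FLIP), a catalytically inactive relative of caspase-8 that modulates it, was listed at 211 and 172 (ratio 0.814 [0.787 to 0.842]). *Cflar* and *Casp8* lie on the plus strand of chromosome 1, at chr1:58711311-58758884 and chr1:58795233-58847503. The reads of *Casp8* relative to *Cflar* were 1.69-fold lower in TG+AKI [1.55 to 1.85].

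The inflammasome genes were scarce in both kidneys, and none of the 4 was 2-fold different as deposited. Over all listed genes, 12.6% were at least 2-fold lower and 9.18% at least 2-fold higher. *Gsdmd* passed 2-fold when both totals were set equal (log2 -1.16). It also passed when the median ratio of genes of at least 100 was set to 1 (-1.03), but not with DESeq2 size factors (-0.87). *Nlrp3*, the sensor most studied in kidney injury, had 29 and 27 reads and was listed at 0.684 and 0.815. Its ratio of 1.19, whose direction turned with equal totals, had an interval of 0.679 to 2.09. A difference within that range was not excluded at this depth. *Nlrc4*, which responds to bacterial flagellin and secretion systems with NAIP proteins, was listed at 3.37 and 4.59 (ratio 1.36 [1.08 to 1.72]). *Pycard* (ASC), the adaptor that joins sensors to caspase-1, was listed at 7.97 and 5.95 (ratio 0.746 [0.623 to 0.892]). *Gsdmd*, the gasdermin that inflammatory caspases cleave, was listed at 6.86 and 3.71 and was 1.85-fold lower [1.49 to 2.30]. The ratio of *Gsdmd* to *Casp1* reads in TG+AKI was 0.922 times that in WT+AKI [0.520 to 1.68], with an interval that included 1. *Gsdmd* relative to *Casp4* was 1.96-fold higher in TG+AKI [1.27 to 3.07].

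Of the 6 innate receptor and alarmin genes, *Tlr2* and *Tlr4* were at least 2-fold lower, against 11.0% of all genes compared. *Tlr2* was listed at 10.5 and 2.42, from 445 and 80 reads, and was 4.34-fold lower in TG+AKI [3.42 to 5.58]. *Tlr4* was listed at 14.7 and 6.31 and was 2.33-fold lower [1.99 to 2.74]. *Tlr2* relative to *Tlr4* was 1.87-fold lower [1.39 to 2.51]. *Tlr3*, which binds double-stranded RNA in endosomes, was listed at 15.5 and 10.4 (ratio 0.669 [0.586 to 0.764]). *Myd88*, the adaptor of TLR2 and TLR4, was listed at 30.03 and 16.5 and was 1.82-fold lower [1.65 to 2.02]. *Acaa1a*, which overlaps 11.3% of the exon bases of *Myd88* on the other strand, was higher in TG+AKI (65.4 and 115). *Ripk2*, the kinase of the NOD receptors, had a ratio of 0.812 [0.657 to 1.001]. *Hmgb1*, a chromatin protein released by dying cells, was listed at 183 and 175 (ratio 0.955 [0.923 to 0.989]). It shares 28.3% of its words with pseudogene copies, so its level is uncertain.

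**Figure D3:**
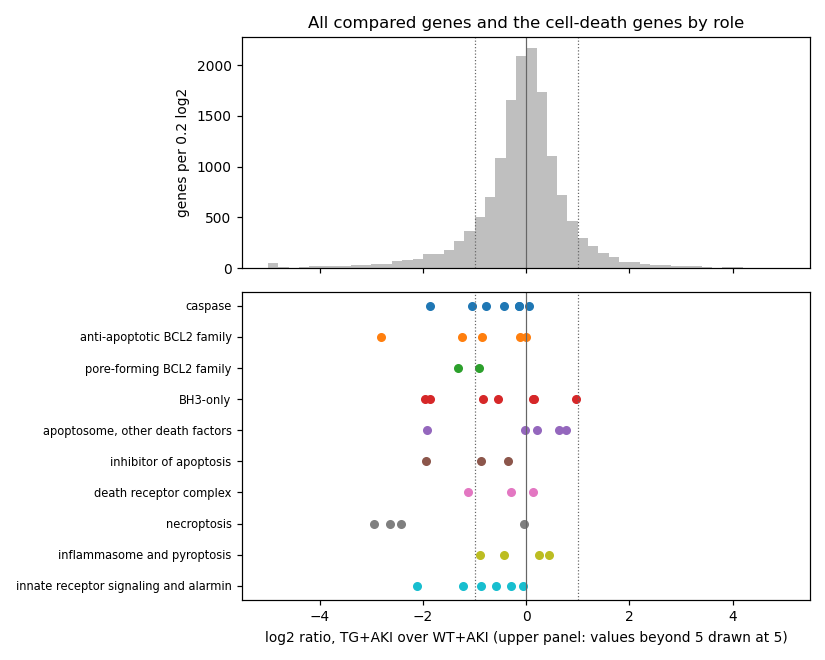
Upper panel, number of genes per 0.2 log2 units of the ratio TG+AKI over WT+AKI among 14997 genes compared. Lower panel, the 46 genes by role on the same axis. Necroptosis holds 3 points left of -2, and no role has a point right of the dotted line at 1.

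Partner, opposing and paralogous genes were also compared within each library, since a ratio of 2 genes from the same library is free of the scaling. Of 20 such pairs, the change between libraries was below 1 with its whole interval for 11, above 1 for 5, and 4 intervals included 1. Among single genes compared, the interval of the ratio lay below 1 for 38.7% and above 1 for 36.3%. No share over pairs of other genes was computed. The direction of a change depends on which gene was put first, and paralogs or receptors that share an adaptor have no natural order. The widely used ratio of the pore former *Bax* to *Bcl2* was 6.88 in reads in WT+AKI and 3.95 in TG+AKI, 1.74-fold lower [1.49 to 2.03]. Against *Bcl2l1*, however, the same gene went the other way, from 0.321 to 0.399, a change of 1.24 [1.15 to 1.34]. *Bak1* relative to *Mcl1* was 1.39-fold lower [1.24 to 1.57], and *Pmaip1* relative to *Mcl1* 2.17-fold lower [1.97 to 2.39]. *Bid* relative to *Bcl2l1* showed the largest upward change, from 0.155 to 0.712, or 4.58 times [4.25 to 4.94]. *Diablo* relative to *Xiap* was 1.253 times higher [1.15 to 1.37] and *Casp9* relative to *Xiap* 1.16 times higher [1.06 to 1.27]. The Bax result thus depended on which survival gene stood in the denominator.

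**Figure D4:**
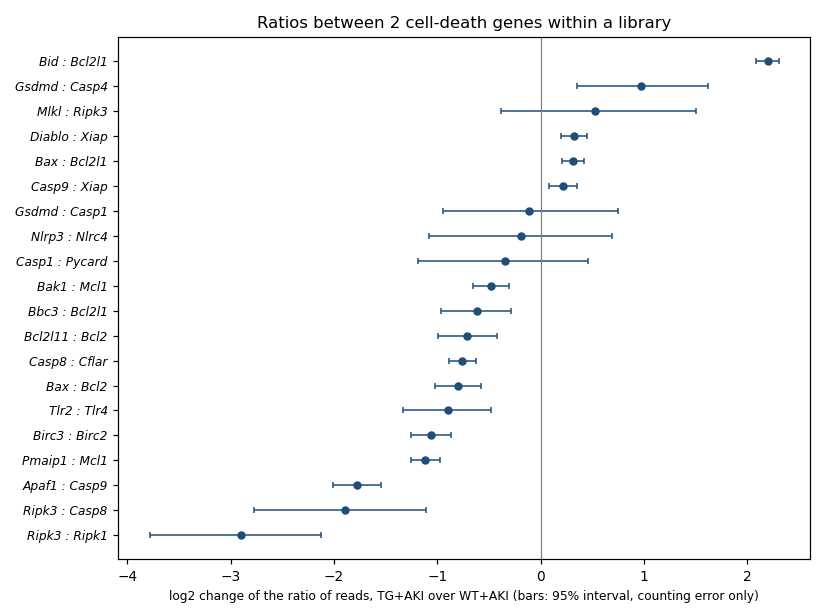
Log2 change between libraries of the ratio of reads of 2 cell-death genes, for 20 pairs, with 95% intervals from counting error. *Ripk3* over *Ripk1* lies furthest left and *Bid* over *Bcl2l1* furthest right.

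Levels of different genes were compared per 1000 bases of the longest annotated transcript, without knowledge of the isoforms in use. On this scale the most abundant members in WT+AKI were *Bcl2l1* (94.3), *Mcl1* (78.0), *Bax* (70.6) and *Hmgb1* (64.5). In TG+AKI they were *Hmgb1* (61.6), *Mcl1* (43.2), *Aifm1* (41.1) and *Bcl2l1* (40.02). *Pmaip1* went from rank 6 of the 46 genes to rank 20, and *Bid* from rank 12 to rank 6. *Nlrp3* was the least abundant in both, at 0.170 and 0.203, and *Ripk3* went from rank 40 to rank 45.

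Promoter sequence was searched for motifs of stress and immune transcription factors, to show where such letters lie near the members' starts. RefSeq promoters of GRCm38.p6, from 250 bases before to 50 after a start, were found for 40 of the 46 genes, as 55 sequences. *Bik*, *Gsdmd*, *Pmaip1*, *Ripk2*, *Tlr4* and *Zbp1* had none. The NF-κB motif (GGG, any 2 bases, TTTCC), on either strand, was in 6 of the 55, from 5 genes, against 1.63% of 32851 promoters of the same length. The IRF motif (GAAA, any 2 bases, GAAA) was in 3, against 3.44%, the AP-1 motif TGANTCA in 2, against 7.81%, and the STAT motif TTCNNNGAA in 4, against 8.30%. The NF-κB and IRF windows of 30 bases are given on the strand of the gene, with the match in capitals, next to genes whose ratios ran from 0.276 (*Casp4*, *Bbc3*) to 0.972 (*Ripk1*).
*Casp4*, NF-κB, chr9:5308746-5308775: atgagttacaGGGGATTTCCccacagcagt
*Casp4*, NF-κB, chr9:5308825-5308854: cctatgctaaGGAAATGCCCagtaactttc
*Bbc3*, NF-κB, chr7:16309437-16309466: ctggctgccgGGAAACCCCCcgcgccgagg
*Bcl2l1*, NF-κB, chr2:152830916-152830945: tacgcctctcGGAAAAACCCgggagtggtc
*Mcl1*, NF-κB, chr3:95658683-95658712: ccagccctccGGAAACGCCCgcccctttcc
*Tlr3*, NF-κB, chr8:45410572-45410601: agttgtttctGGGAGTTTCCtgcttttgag
*Myd88*, IRF, chr9:119340039-119340068: gagcttctcgGAAAGCGAAAgaaggagggg
*Cflar*, IRF, chr1:58711487-58711516: ccacgtctgcTTTCGGTTTCtgggcgtctc
*Ripk1*, IRF, chr13:34002859-34002888: aacgttcccgGAAATCGAAAagcgcggaac
The 2 promoters of *Casp4* overlap, and both hold the same pair of NF-κB matches. In *Myd88* and *Ripk1* the IRF match shares bases with a STAT match. *Casp4*, *Bbc3* and *Bcl2l1* were at least 2-fold lower in TG+AKI, and *Mcl1* and *Tlr3* were lower by less. Of the 45 members past the minimum value, 15 were at least 2-fold lower and 35 had a ratio below 1. *Birc3* and *Bcl2a1b*, named above as NF-κB targets, had no NF-κB match in these windows. A match in these windows is a description of letters and not evidence that a factor binds.

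Further genes of the same pathways were drawn from 4 other lists of 100 genes, of which 90 had a row and 83 reached a value of 1. At least 2-fold lower values were found for 26 of the 83 and higher ones for 2, against the same 11.0% and 7.35% of all genes compared. Among those lower, *Bcl2a1a*, *Bcl2a1d*, *Birc5*, *Naip5*, *Panx1*, *Gm12250*, *Il1rn*, *Tlr9* and *Tlr13* reached 1 in WT+AKI only. They thus passed the minimum value through the library where they were high. A count of genes with at least 1 in both libraries was not made for these lists. Among other apoptosis genes, 7 of 28 were lower and 1 was higher, and the median log2 ratio was 0.079. *Tnfrsf10b*, the mouse TRAIL receptor, was listed at 28.2 and 4.47 and was 6.32-fold lower [5.32 to 7.55], next to *Bcl2a1d* and *Bcl2a1a*, which share sequence with *Bcl2a1b*. Other necroptosis genes were mostly near equal, with 2 of 14 lower and a median of -0.15. *Tnfaip3* (A20), a ubiquitin editor that restrains RIPK1 and RIPK3, was listed at 32.8 and 6.67 and was 4.92-fold lower [4.27 to 5.70]. *Eif2ak2* (2.07-fold lower) and *Mapkapk2* (1.62-fold lower) followed.

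Other inflammasome genes had a median of -0.90, with 9 of 21 lower and 1 higher. *Il1rn*, the antagonist of interleukin-1 receptors, was listed at 18.02 and 0.121, the latter from 4 reads, and was 149-fold lower [58.0 to 549]. *Panx1*, a channel opened during cell death, was 4.86-fold lower [3.09 to 8.02], and *Gbp3*, an interferon-induced GTPase, was 3.32-fold lower [2.84 to 3.91]. Other Toll-like receptor genes had a median of -0.63, with 8 of 20 lower and 0 higher. *Cd14*, the co-receptor of TLR4 and TLR2, was listed at 25.2 and 2.60 and was 9.70-fold lower [7.78 to 12.2]. *Tlr13* (3.84-fold) and *Tlr1* (3.68-fold) were next. Genes of ferroptosis, an iron-dependent death by lipid peroxidation, had a median of -0.28. Of 20, 7 were lower and 0 higher, against 11.0% and 7.35% of all genes compared. Of those lower, *Slc7a11*, *Alox5*, *Ptgs2* and *Chac1* reached 1 in WT+AKI only. *Slc7a11*, the cystine importer, was 22.4-fold lower [10.1 to 61.9] from 172 and 6 reads, *Alox5* was 20.3-fold lower [12.3 to 35.8] and *Ptgs2* 11.1-fold lower [7.12 to 18.2]. *Gpx4*, the peroxidase that blocks ferroptosis, is named after its value was seen and was listed at 524 and 642.

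Leukocytes express several of these genes, and the summed markers of macrophages, neutrophils and all leukocytes were lower in TG+AKI. Those of T and B cells were too scarce to compare. Of 9 macrophage markers, 7 were at least 2-fold lower, against 11.0% of all genes compared, and 0 higher, against 7.35%. Their summed value went from 194 to 85.5, 2.28-fold lower. *Cd68* was 26.7-fold lower and *Itgam* 18.8-fold, whereas, outside that count, *Csf1r* (37.5 and 43.0) and *Mrc1* (2.67 and 4.26) were higher. The 3 pan-leukocyte markers summed to 43.7 and 19.4, 2.26-fold lower, with *Ptprc* at 13.7 and 7.28. Of 8 neutrophil markers, 4 had a row and summed to 8.26 and 1.57, which was 5.26-fold lower. T cell markers (6 of 7 with a row) summed to 3.11 and 3.77, and B cell markers to 1.46 and 1.87. Only 1 T cell marker and 0 B cell markers reached a value of 1, so no contrast with other leukocytes can be drawn. Since the deposited values hold no gene without reads in either library, no marker could be listed at 0. *Ly6g*, *Retnlg*, *Cxcr2*, *Mmp8* and *Cd3d* had no row. The part of leukocytes, and that of the tubular markers, in the differences of the cell-death genes was not tested. Endothelial markers summed to 228 and 243 and podocyte markers to 82.4 and 101.

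**Figure D5:**
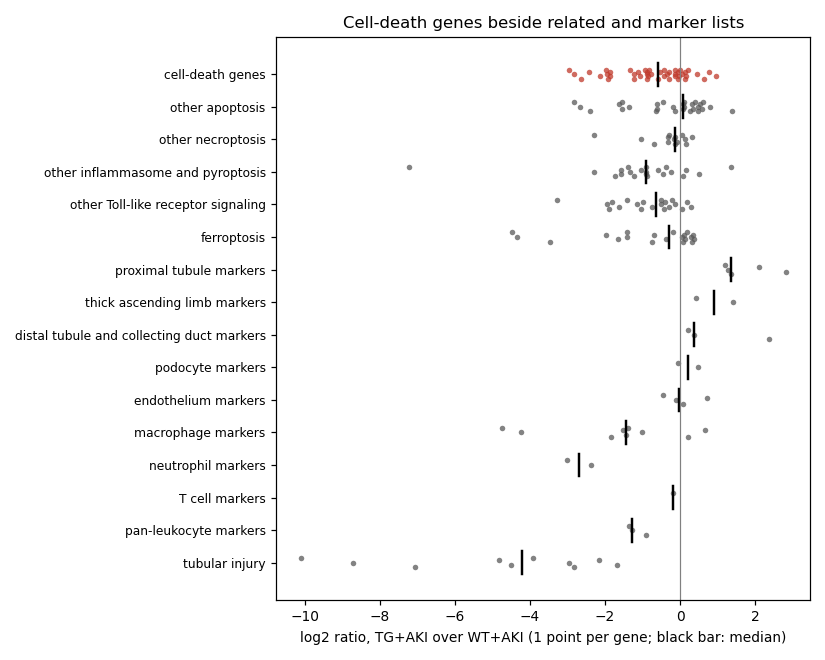
Log2 ratio of TG+AKI over WT+AKI, 1 point per gene that reached a value of 1 in either library, with the list median as a black bar. The cell-death genes (red) have a median of -0.58, tubular injury genes -4.21, macrophage markers -1.44 and proximal tubule markers 1.37.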

How the data were processed

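Messenger RNA of whole kidneys was sequenced, 1 library per group (TruSeq Stranded mRNA kit, per the labels). Per the study's methods, the authors aligned reads with STAR 2.7.3a, took raw counts from HTSeq, used DESeq2 for normalization and estimated FPKM with Cufflinks 2.2.1. The submitters' processing notes also list edgeR and mm10. The strand setting and the annotation were not given in the sources used here. The authors deposited 1 normalized signal value per gene and library. Each was a whole multiple of the smallest in its column (100% of genes, tolerance 0.01), so reads were recovered. One read equals 0.0236 in WT+AKI and 0.0302 in TG+AKI, which equals edgeR's TMM scaling per 1000000 reads (factors 1.10 and 0.909) and not the DESeq2 normalization that the methods state. No gene in the table lacks reads in either library, so genes detected in 1 library only are not analysed here.

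Ratios of values were taken without a pseudocount, over genes that reached a value of 1 in either library (42 and 33 reads), and called at 2-fold. No p-value was computed. Changes of ratios between 2 genes are conditional odds ratios with exact 95% intervals. The floor was 3 reads, and no member was at it. The members, lists, pairs and motifs were chosen with earlier results of these data known. All members are named. Of each related pathway list, the 3 largest absolute changes are named, and of the marker lists the summed values. Single marker genes and *Gpx4* were named after their values were seen. Positions follow RefSeq of GRCm38.p6. Transcript lengths, exon overlaps and shared 100-base words come from the longest transcripts of GENCODE M21. The procedure was tested on simulated reads that held counting error alone, so that test says nothing on variation between mice. Software was Python 3.11.15, scipy 1.17.1, DESeq2 1.42.0 and edgeR 4.0.16.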

Additional observations from a re-analysis of the deposited data

How the results depend on the processing

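Under 9 alternatives, the number of cell-death genes at least 2-fold lower stayed between 10 and 22, and none was at least 2-fold higher under any of them. The count was 10 of 33 with a minimum value of 10, and 12 of 45 when the interval also had to exclude 2-fold. With equal totals the median log2 ratio moved to -0.85. For all genes, 2489 were lower and 1821 higher without a minimum value, 790 and 629 with a minimum of 10, which compares fewer genes, and 694 higher with equal totals. Equal totals turned the direction of *Casp6*, *Bcl2l2*, *Bad*, *Bik*, *Parp1*, *Fadd* and *Nlrp3*, none of them 2-fold different, and took *Casp1*, *Mcl1*, *Bax*, *Bcl2l11*, *Birc2*, *Gsdmd* and *Myd88* past 2-fold. These changes follow from 1 shift of all genes. With a pseudocount of 1, the log2 change of *Ripk3* over *Casp8* moved from -1.89 to -0.60 and that of *Ripk3* over *Ripk1* from -2.90 to -1.59, since low values shrink, and the other 18 pairs stayed within their intervals. The same pseudocount moved the log2 ratios of 6 genes beyond counting error, all still past 2-fold: *Mlkl* to -1.88, *Tlr2* to -1.75, *Zbp1* to -1.74, *Ripk3* to -1.63, *Casp4* to -1.24 and *Bcl2a1b* to -1.19. *Pmaip1* (-1.90) was then the lowest. DESeq2 size factors moved no gene beyond counting error. No paired analysis was possible because each group has 1 library, and no library could be left out. Depth limits *Casp1*, *Bcl2a1b*, *Ripk3*, *Zbp1* and *Nlrp3*, each with 27 or fewer reads in at least 1 library.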
